A study of Mus musculus with 12 samples.

Results

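The homeostatic microglia genes P2ry12, P2ry13, Gpr34, Tmem119, Csf1r, Cx3cr1, Siglech, Sall1 and Olfml3 were examined in the VTA (ventral tegmental area), where part of the dopaminergic neurons of the midbrain lie. They were chosen by symbol, and every probe set that the annotation of the array gives to 1 of these genes and to no other was taken. This gave 13 probe sets for the 9 genes, of 45037 probe sets and 18193 genes tested. Csf1r had 3 probe sets, Cx3cr1 and Sall1 had 2 each, and the other 6 genes had 1 each. The animals were wild-type C57BL/6 mice (strain C57 per the labels) of 2, 10 and 18 months of age, with no treatment, and 4 arrays were run per age. Each array held VTA RNA pooled from 5 mice, so errors and p-values refer to pools and leave out the spread between individual mice. Whole tissue was dissected, and microglia were not sorted from it. Therefore a change in the number of microglia and a change in RNA per microglial cell cannot be told apart in any value given here.

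Microglia are the resident macrophages of the brain. In the healthy brain they carry a set of surface receptors and regulators that distinguishes them from other macrophages, and this set is lowered when microglia become activated. P2ry12 and P2ry13 sense purine nucleotides released by neighbouring cells, Csf1r receives the survival signals Csf1 and Il34, Cx3cr1 receives the neuronal chemokine Cx3cl1, and the transcription factor Sall1 keeps microglial identity. The transcription factor Pu.1 (gene Spi1), which binds purine-rich sequences with a GGAA core, is required for microglia to form.

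Values are on the log2 scale on which they were deposited, so a difference of 1 is a 2-fold difference. The young arrays 3 and 4 were nearly the same (correlation over probe sets 0.998, against 0.967 to 0.996 in the 17 other pairs of one age). They were averaged and enter every test as a single young sample, so that n = 3 for the young age and n = 4 for each older age. A call required an adjusted p under 0.05 (limma, Benjamini-Hochberg over the 45037 probe sets) together with a change of more than 1.3-fold. The difference between the 3′ and 5′ control probe sets of the array, a measure of how far the labelled RNA was shortened, was 3.47 ± 0.17 (SD, n = 3) in young samples. It was 2.15 ± 0.34 (n = 4) at 10 and 1.98 ± 0.24 (n = 4) at 18 months. No older array reached the lowest young value, 3.29.

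Promoters are shown for the purine receptors P2ry12 and P2ry13, the members with the lowest adjusted p at 18 against 2 months, and for Cx3cr1, a receptor that did not pass. They come from RefSeq (build GRCm38.p6) and run from 250 bases before the start of the gene to 50 bases after it. All of them lie on the minus strand: P2ry12 at chr3:59262936-59263235, P2ry13 at chr3:59210833-59211132 and Cx3cr1 at chr9:120068247-120068546. Capitals mark a match, on either strand, to the letters GAGGAA or to the overlapping letters AGGAAGT, both of the purine-rich kind that Pu.1 and related factors bind.
P2ry12: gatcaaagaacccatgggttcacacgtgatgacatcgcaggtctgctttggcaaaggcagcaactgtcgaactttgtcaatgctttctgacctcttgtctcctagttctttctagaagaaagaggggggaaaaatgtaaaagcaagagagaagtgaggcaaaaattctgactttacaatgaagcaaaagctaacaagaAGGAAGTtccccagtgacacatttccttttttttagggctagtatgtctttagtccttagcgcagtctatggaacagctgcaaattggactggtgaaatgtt
P2ry13: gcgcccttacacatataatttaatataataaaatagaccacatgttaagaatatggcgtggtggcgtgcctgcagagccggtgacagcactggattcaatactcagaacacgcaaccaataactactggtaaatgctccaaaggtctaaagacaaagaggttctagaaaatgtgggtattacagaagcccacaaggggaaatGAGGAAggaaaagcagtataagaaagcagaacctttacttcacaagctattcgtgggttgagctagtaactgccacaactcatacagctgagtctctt
Cx3cr1: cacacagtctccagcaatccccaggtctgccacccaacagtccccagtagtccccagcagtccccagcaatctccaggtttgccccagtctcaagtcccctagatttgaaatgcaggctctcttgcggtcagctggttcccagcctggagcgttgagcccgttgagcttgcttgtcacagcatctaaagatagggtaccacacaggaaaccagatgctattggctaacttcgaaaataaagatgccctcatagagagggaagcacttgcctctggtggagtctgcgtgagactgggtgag
The P2ry12 window held AGGAAGT, with its first base 52 bases before the start. The P2ry13 window held GAGGAA, with its first base 48 bases before the start. The Cx3cr1 window held neither. Among the members that were not called, 1 of the Sall1 windows held AGGAAGT (181 bases before the start) and the Siglech window held GAGGAA on the other strand (4 bases before the start). The Olfml3 window held neither. A match was thus not confined to called members. GAGGAA was found in 28.3% and AGGAAGT in 9.35% of the 32851 promoter windows in the table, and no binding was measured, so these matches are a description only. The starts of P2ry12 and P2ry13 lie 52.1 kb apart. Of the 9 members, 6 had a promoter in the table. Gpr34, Tmem119 and Csf1r had none, so P2ry12 and P2ry13 were the only members called at their brightest probe set that could be compared.

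At 18 against 2 months, 4 of the 9 homeostatic genes were called higher and 5 did not pass the test. P2ry12, P2ry13, Gpr34 and Tmem119 were called higher at their brightest probe set, and no member was called lower. Of all 18193 genes, 5.76% were called higher and 3.06% lower. Csf1r joined them at another of its probe sets, which gave 5 of 13 probe sets called higher, against 4.55% of all probe sets. Counted at any probe set, 5 of 9 members were called, against 9.74% of all genes. The median change of the 9 members was 0.14 on the log2 scale, against -0.02 over all genes, since Cx3cr1, Siglech, Olfml3, Csf1r and Sall1 lay between -0.35 and 0.14 at their brightest probe sets. Csf1r enters this median, and the mean below, at a probe set for which the annotation gives no transcript accession. The mean over the 9 members was 8.08 ± 0.14 (SD, n = 3) in the young samples. In the older samples it was 8.44 ± 0.03 (10 months, n = 4) and 8.48 ± 0.02 (18 months, n = 4). The young samples also stand apart from all others in the 3′ minus 5′ difference. With that difference in the model as a covariate, no member was called at 18 against 2 months.

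**Figure D1:**
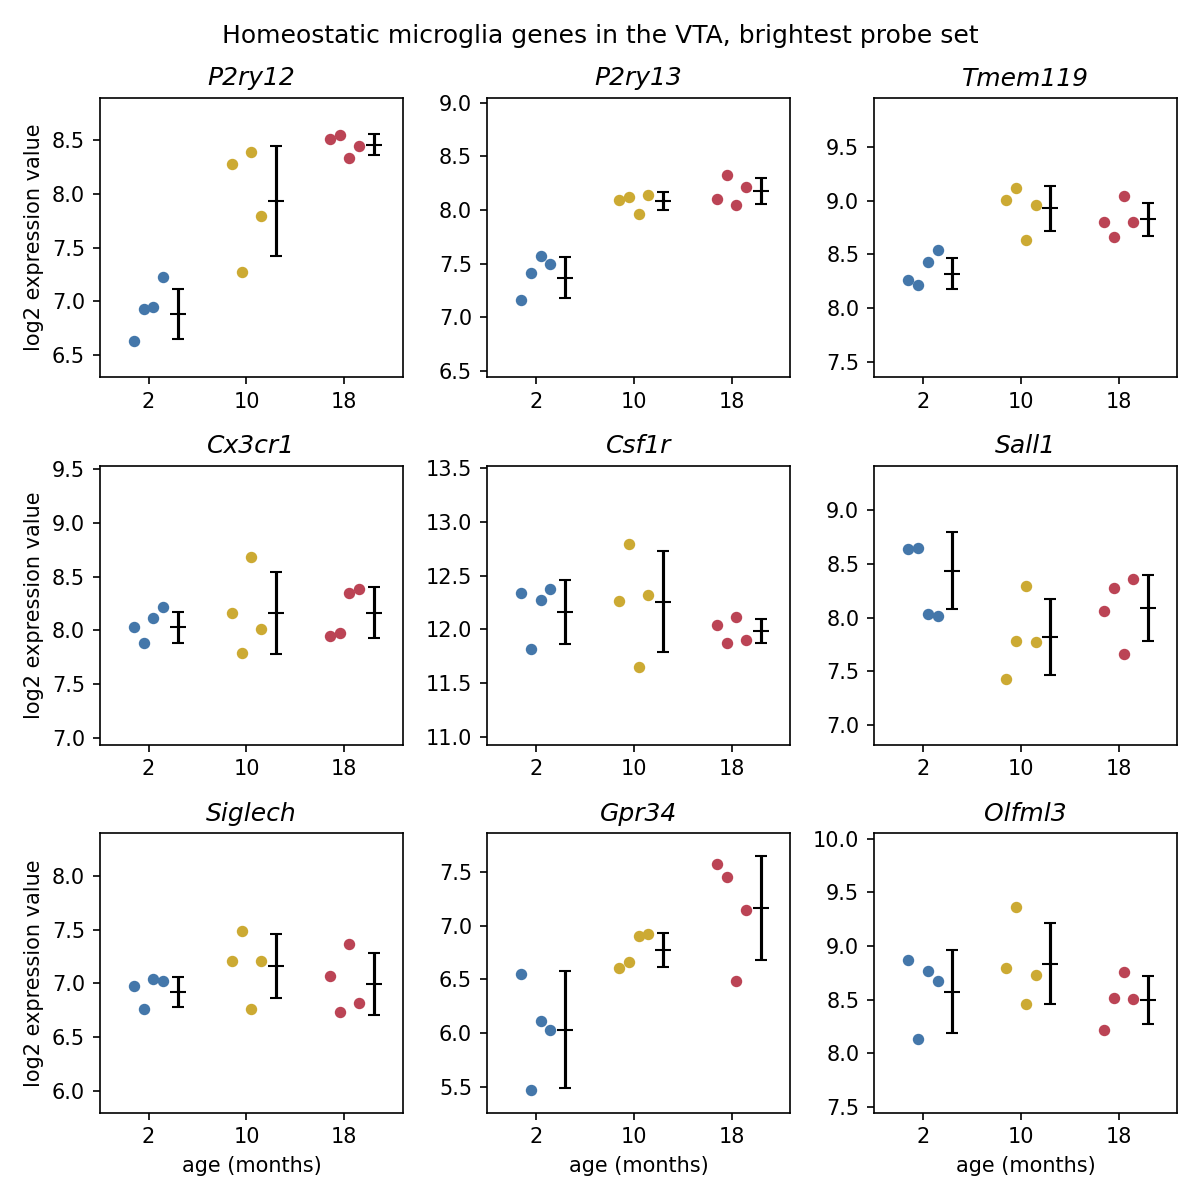
Log2 expression value (vertical axis, 2.6 log2 units high in each panel) of the 9 homeostatic microglia genes at their brightest probe set, by age in months. Points are the 12 arrays and black bars are mean ± SD with young arrays 3 and 4 counted once; P2ry12, P2ry13 and Tmem119 at 18 months lie above all young arrays, whereas Cx3cr1, Csf1r, Siglech and Olfml3 overlap between ages.

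P2ry12, the receptor by which microglial processes are drawn to released ADP, had the largest change of the members. Its level was 6.63, 6.92, 6.94 and 7.23 in the arrays of 2 months. It was 8.28, 7.27, 8.39 and 7.80 at 10 months and 8.51, 8.55, 8.34 and 8.44 at 18 months. All arrays of 18 months lay more than 1 log2 unit above all those of 2 months, while the arrays of 10 months were spread over the whole range between them. The means by age were 6.88 ± 0.23 (SD, n = 3), 7.93 ± 0.51 (n = 4) and 8.46 ± 0.09 (n = 4). The change at 18 against 2 months was 1.58 ± 0.23 (SE; adjusted p = 0.00513, limma), a 2.99-fold difference. The 10 months samples were also called higher than the 2 months samples, by 1.05 ± 0.23 (adjusted p = 0.0496). From 10 to 18 months the difference was 0.53 ± 0.21, which had the smallest unadjusted p of the members in that interval (0.0294) and did not pass after adjustment (adjusted p = 0.847).

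P2ry13, which codes for another ADP receptor and lies near P2ry12, was called higher at both older ages. The arrays of 2 months gave 7.16, 7.41, 7.57 and 7.50. Those of 10 months gave 8.10, 8.12, 7.96 and 8.14, and those of 18 months 8.11, 8.32, 8.05 and 8.21. The older ages overlapped each other and neither overlapped the young arrays. The change was 0.71 ± 0.12 at 10 against 2 months (adjusted p = 0.0307) and 0.81 ± 0.12 at 18 against 2 months (adjusted p = 0.005), a 1.75-fold difference. Between 10 and 18 months it was 0.09 ± 0.11 (adjusted p = 0.867). P2ry13 had a smaller SD than P2ry12 at 10 months (0.08 against 0.51).

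Gpr34, a receptor for lysophosphatidylserine, gave 6.56, 5.47, 6.12 and 6.03 in the arrays of 2 months. It gave 6.61, 6.67, 6.90 and 6.92 at 10 months and 7.58, 7.45, 6.49 and 7.15 at 18 months. The youngest and oldest ages overlapped, as array 3 of 18 months lay below array 1 of 2 months. The means were 6.03 ± 0.55 (n = 3), 6.78 ± 0.16 (n = 4) and 7.17 ± 0.49 (n = 4). The change at 18 against 2 months was 1.13 ± 0.28 (adjusted p = 0.0313), a 2.20-fold difference. At 10 against 2 months the groups did not overlap, and the difference of 0.74 ± 0.28 did not pass (adjusted p = 0.205). The call at 18 months depended on single arrays: it was lost without any 1 of the 2 months samples or without array 1, 2 or 4 of 18 months, with adjusted p between 0.0518 and 0.11, and without array 2 of 2 months the change was 0.85.

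Tmem119, a transmembrane protein used to tell microglia from macrophages that enter from blood, gave 8.26, 8.21, 8.43 and 8.54 in the arrays of 2 months. It gave 9.003, 9.12, 8.63 and 8.96 at 10 months and 8.80, 8.66, 9.04 and 8.80 at 18 months. Every older array lay above every young one. The change was 0.51 ± 0.14 at 18 against 2 months (adjusted p = 0.0463), a 1.42-fold difference. It was 0.61 ± 0.14 at 10 against 2 months, which narrowly missed the threshold (adjusted p = 0.0549), and -0.10 ± 0.13 from 10 to 18 months. The call at 18 months was the least stable of the 4. It was lost when array 1 or 2 of 2 months, 1 or 4 of 10 months, or any array of 18 months was left out, with adjusted p between 0.0593 and 0.189, and it was also lost after quantile normalization (0.43, adjusted p = 0.13).

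Csf1r, the receptor tyrosine kinase on which microglia depend for survival, was called at 1 of its 3 probe sets. At the dimmest of them the values were 8.55, 8.47, 8.85 and 8.73 at 2 months, 9.50, 9.35, 9.05 and 9.15 at 10 months, and 9.23, 9.29, 9.40 and 9.24 at 18 months. No older array overlapped the young ones there, and the change of 0.69 ± 0.13 at 18 against 2 months (adjusted p = 0.0115, 1.61-fold) and of 0.66 ± 0.13 at 10 against 2 months (adjusted p = 0.0408) passed. The brightest probe set gave 12.34, 11.82, 12.28 and 12.38 at 2 months, 12.27, 12.80, 11.65 and 12.32 at 10 months, and 12.05, 11.87, 12.12 and 11.90 at 18 months. The annotation gives no transcript accession for this probe set or for the middle one, so whether they measure Csf1r mRNA could not be checked. At the brightest probe set the ages overlapped, and the difference at 18 against 2 months was -0.18 ± 0.22 (adjusted p = 0.694), with a 95% interval from -0.67 to 0.32. The middle probe set ran from 9.65 to 10.16 in young arrays, from 9.69 to 10.59 in those of 10 months and from 9.96 to 10.30 in the oldest (change at 18 against 2 months 0.26 ± 0.19, adjusted p = 0.457). The suffix of its identifier marks probes that can match transcripts of more than one gene. The intervals of the brightest and the dimmest probe set do not overlap (upper limit 0.32 against lower limit 0.41), and the difference between probe sets was not tested. Without array 1 of 2 months, the call of the dimmest probe set at 18 months was lost (0.66, adjusted p = 0.07). At 10 months that call remained in 2 of 11 fits that left out 1 sample.

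**Figure D2:**
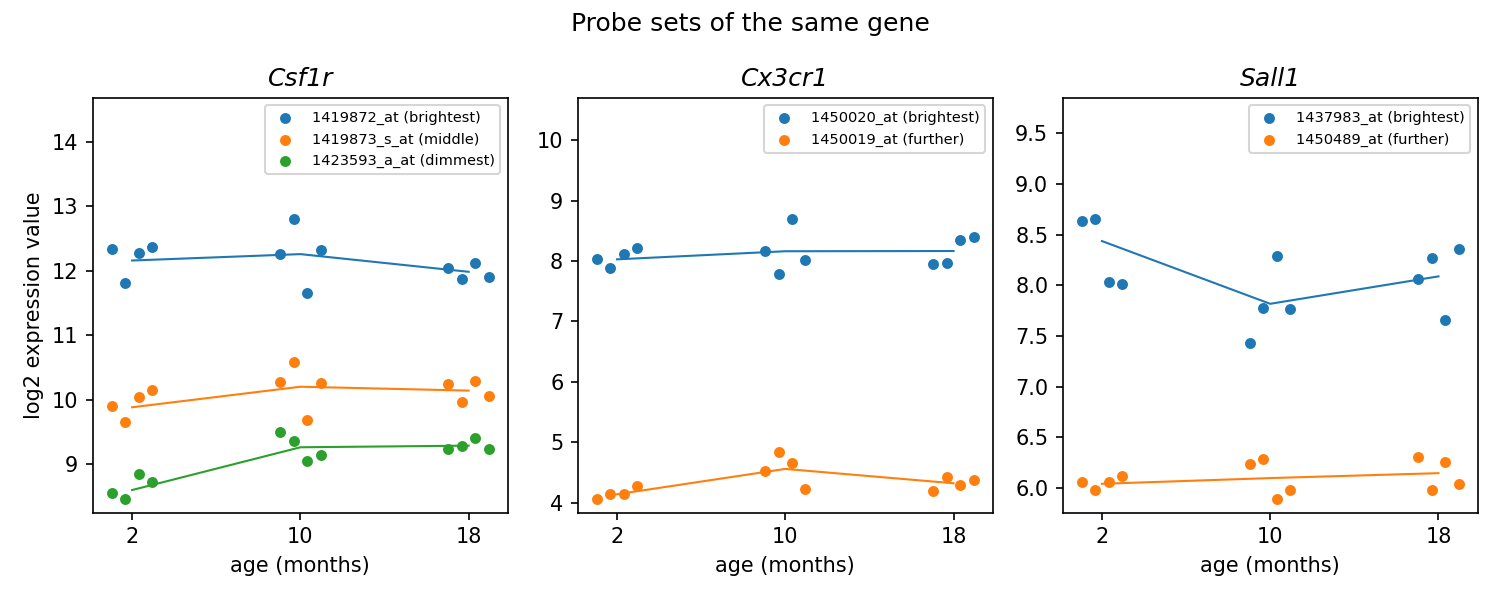
Log2 expression value (vertical axis) by age in months (horizontal axis) for the genes with more than 1 probe set; points are the 12 arrays and lines join the age means with young arrays 3 and 4 counted once. Of the 3 Csf1r probe sets, the dimmest is higher at both older ages without overlap, and the brightest overlaps between ages; height on the axis is not comparable between probe sets.

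Cx3cr1, the microglial receptor for the neuronal chemokine Cx3cl1, did not pass in any comparison. At its brightest probe set the arrays of 2 months gave 8.04, 7.88, 8.12 and 8.22, those of 10 months 8.16, 7.79, 8.69 and 8.01, and those of 18 months 7.95, 7.97, 8.35 and 8.39. The ages overlapped. The difference was 0.14 ± 0.20 at 18 against 2 months (adjusted p = 0.729), with a 95% interval from -0.29 to 0.57. The estimates for P2ry12 (1.58), Gpr34 (1.13) and P2ry13 (0.81) lie outside this interval and that for Tmem119 (0.51) lies inside it. The other probe set of Cx3cr1, which lay near the lower quartile of the arrays (4.07 to 4.83), differed by 0.18 ± 0.14 at 18 against 2 months (adjusted p = 0.463). At 10 against 2 months it differed by 0.42 ± 0.14 (adjusted p = 0.148).

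Siglech, a sialic acid-binding lectin shared by microglia and plasmacytoid dendritic cells, and Olfml3, a secreted matrix protein made by microglia in the brain, overlapped at all ages. Siglech gave 6.97, 6.76, 7.04 and 7.02 at 2 months, 7.21, 7.48, 6.76 and 7.21 at 10 months, and 7.07, 6.73, 7.37 and 6.82 at 18 months. Its difference at 18 against 2 months was 0.07 ± 0.19 (adjusted p = 0.852; 95% interval -0.33 to 0.48). For Olfml3 the values were 8.87, 8.14, 8.77 and 8.67 at 2 months, 8.80, 9.36, 8.46 and 8.73 at 10 months, and 8.21, 8.52, 8.76 and 8.51 at 18 months. Its difference was -0.08 ± 0.23 (adjusted p = 0.877; 95% interval -0.57 to 0.42). Both intervals reach changes of more than 1.3-fold (0.38 on the log2 scale), so smaller changes of these genes were not measurable with this number of arrays.

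Sall1, the transcription factor that in the adult brain marks microglia among macrophages, had the lowest change of the members at both older ages. Its brightest probe set gave 8.64, 8.65, 8.04 and 8.01 at 2 months, 7.43, 7.78, 8.29 and 7.77 at 10 months, and 8.06, 8.27, 7.66 and 8.36 at 18 months. The ages overlapped. The difference was -0.62 ± 0.23 at 10 against 2 months (unadjusted p = 0.0202, adjusted p = 0.206, limma) and -0.35 ± 0.23 at 18 against 2 months (adjusted p = 0.399). At the other probe set of Sall1, which ran from 5.90 to 6.30, the differences were 0.06 ± 0.13 and 0.10 ± 0.13. The sign at 18 against 2 months thus differed between the probe sets of Sall1, neither of which was called.

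Between 10 and 2 months, P2ry12 and P2ry13 were the members called higher at the brightest probe set (2 of 9), and Csf1r was added at its dimmest probe set (3 of 13 probe sets). Of all genes 1% were called higher at the brightest probe set, 1.89% at any probe set, and of all probe sets 0.837%. None of the members was called lower, against 0.484% of all genes. Groups did not overlap, with the older one higher, for P2ry12, P2ry13, Tmem119 and Gpr34 (4 of 9), against 7.74% of all genes. At 18 against 2 months this held for P2ry12, P2ry13 and Tmem119 (3 of 9), against 13.2%. The comparisons share the 2 months arrays. The calls at 10 months were less stable than those at 18 months. Leaving out array 1 or 2 of 2 months, 1 or 4 of 10 months, or 2 or 4 of 18 months left no member called at its brightest probe set, with P2ry12 between 0.93 and 1.10 and P2ry13 between 0.61 and 0.73 on the log2 scale.

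Between 18 and 10 months no member passed (0 of 9 genes and 0 of 13 probe sets; limma), and P2ry12 was the single one with an unadjusted p under 0.05. Of all probe sets, 0.00222% were called higher in this interval and of all genes 0%. The older group lay above the younger without overlap for no member, against 1.35% of all genes. Whether the members changed unequally in the earlier and the later interval was tested as the difference between the 10 against 2 months and the 18 against 10 months changes. No member passed (adjusted p 0.898 or higher), and 3 of 9 had an unadjusted p under 0.05: P2ry13 (0.62 ± 0.19), Tmem119 (0.71 ± 0.23) and Sall1 (-0.89 ± 0.38). Of the 45037 probe sets, 2463 had an unadjusted p under 0.05 and none passed this test.

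**Figure D3:**
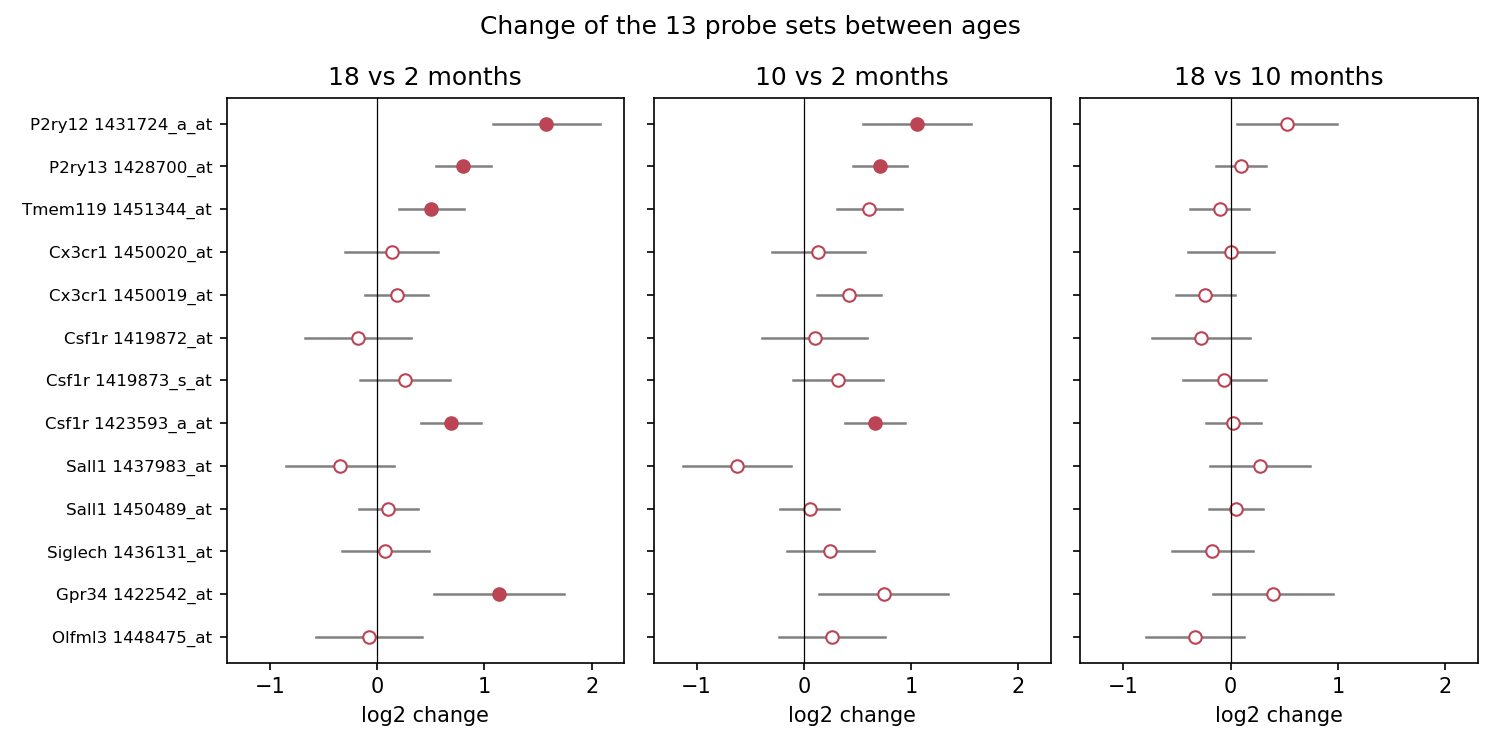
Log2 change (horizontal axis) of the 13 probe sets of the homeostatic genes in 3 comparisons of ages, with 95% intervals as grey lines; filled points were called and open points were not. Called probe sets are 5 at 18 against 2 months, 3 at 10 against 2 months and 0 at 18 against 10 months.

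The 3′ minus 5′ difference separated the young arrays from all others, so it was added to the model as a covariate. Because it goes with the young age, age and this difference cannot be told apart in comparisons with 2 months. No member was then called in any comparison, and none of all probe sets. Of the 9 members, 2 had an unadjusted p under 0.05 at 18 against 2 months, as did 1748 of the 45037 probe sets. The median SE of the members grew from 0.22 to 0.58. The value of P2ry13 went from 0.81 to 0.93 ± 0.33 (adjusted p = 1.0) and that of Gpr34 from 1.13 to 2.69 ± 0.61 (adjusted p = 0.871). The value of P2ry12 went from 1.58 to 0.60 ± 0.58 and that of Tmem119 from 0.51 to 0.38 ± 0.39. Cx3cr1 turned from 0.14 to -0.57 ± 0.52, Csf1r at its brightest probe set from -0.18 to 0.44 ± 0.62, Sall1 from -0.35 to 0.39 ± 0.62 and Olfml3 from -0.08 to 0.35 ± 0.63. With the first principal component of the arrays (44.2% of the variance) in its place, the 4 calls at 18 against 2 months remained, with P2ry12 at 1.45 ± 0.18, P2ry13 at 0.81 ± 0.11, Gpr34 at 1.13 ± 0.27 and Tmem119 at 0.59 ± 0.10. The young samples scored -16.6, 20.5 and -29.1 on this component, inside the range of the older ones (-62.4 to 69.7). It thus does not separate the young arrays as the 3′ minus 5′ difference does. Over all probe sets, 8712 were called with it, against 3359 in the main fit.

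**Figure D4:**
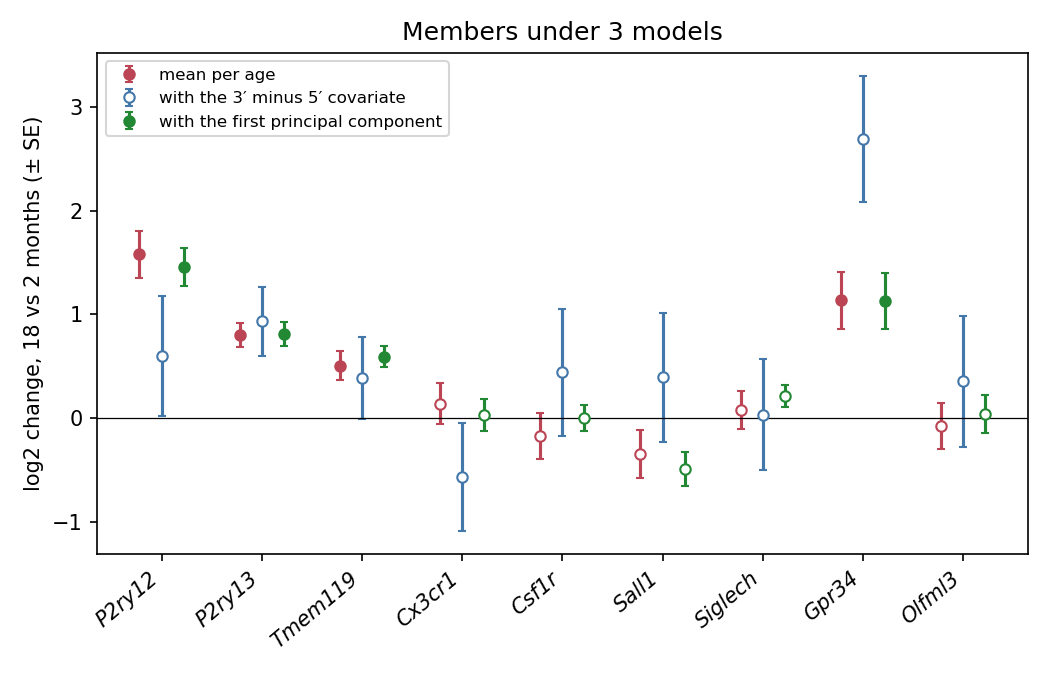
Log2 change at 18 against 2 months ± SE (vertical axis) of the 9 homeostatic genes at their brightest probe set under 3 models: mean per age alone, with the 3′ minus 5′ control difference and with the first principal component. Filled points were called; with the 3′ minus 5′ difference none is, and P2ry12 drops from 1.58 to 0.60 while Gpr34 goes from 1.13 to 2.69.

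Genes that act with the members were examined next, and their counts stand against 5.76% of all genes called higher and 3.06% called lower. In the list of ligands and upkeep of the members, 1 of 13 measured genes was called higher at 18 against 2 months and none lower, a share near that of all genes. This was Tgfbr2, the receptor for the Tgf-beta signal that microglia need to keep their homeostatic state (1.01 ± 0.11, adjusted p = 0.00284), although its 2 weaker probe sets gave -0.06 and 0.04. The ligand Tgfb1 did not pass (0.07 ± 0.29, adjusted p = 0.917). Neither did the Csf1r ligands Csf1 (-0.28 ± 0.21, adjusted p = 0.482) and Il34 (0.49 ± 0.25, adjusted p = 0.264). For Cx3cl1, the ligand of Cx3cr1, the brightest probe set gave 0.63 ± 0.18 (adjusted p = 0.0623). A dimmer probe set, with a mean level of 5.30, was called the other way (-0.56, adjusted p = 0.0401). The remaining probe sets of Cx3cl1 gave 0.18 and -0.03 and were not called.

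Of 9 measured microglial transcription factors, 2 were called higher, against 5.76% of all genes, and none lower. Irf8, needed for microglia to develop, rose by 0.99 ± 0.11 (adjusted p = 0.0036) at the brightest of its 2 probe sets and gave 0.01 at the other. Mef2a, a factor that acts at microglial enhancers and is also present in neurons, rose by 0.74 ± 0.17 (adjusted p = 0.0262) at the brightest of its 6 probe sets, and the other 5 were not called (-0.11 to 0.91, adjusted p 0.224 or higher). Spi1, which encodes Pu.1, did not pass (-0.26 ± 0.18, adjusted p = 0.425). In the list of purinergic signalling, 1 of 8 measured genes was called. This was Kcnk13, the potassium channel that sets the resting potential of microglia, with 0.89 ± 0.14 at 18 against 2 months (adjusted p = 0.00719) and 0.69 ± 0.14 at 10 against 2 months (adjusted p = 0.048), while its dimmer probe set gave -0.06 at 18 against 2 months. Of 25 other microglia-enriched genes, 3 were called higher (Ctss, a lysosomal protease, by 0.69 ± 0.10; Ptprc, the leukocyte antigen CD45, by 0.99 ± 0.25; Lpcat2, an enzyme of lipid remodelling, by 0.47 ± 0.10), with a median of 0.29 over the list and of -0.02 over all genes. The dimmer probe sets of Ptprc (-0.20) and Lpcat2 (0.15) were not called.

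Of 19 measured genes known from activated microglia, 11 were called higher, against 5.76% of all genes, and none lower, with a median of 0.68, against 4 of 9 and 0.14 for the homeostatic genes; the lists were not tested against each other. The lowest adjusted p values were those of the lectin receptor Clec7a (2.05 ± 0.23), lysozyme Lyz2 (1.52 ± 0.18), the class I subunit B2m (1.14 ± 0.13) and the protease Ctsd (0.61 ± 0.11). Several of these genes, such as B2m, Ctsd and Apoe, are not confined to microglia. Without array 1 of 2 months, 3 genes of this list were called, 1 transcription factor and 1 of the other microglia-enriched genes, while Tgfbr2's and Kcnk13's lists kept counts of 1 each. With the 3′ minus 5′ covariate the count was 0 in each of these lists.

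**Figure D5:**
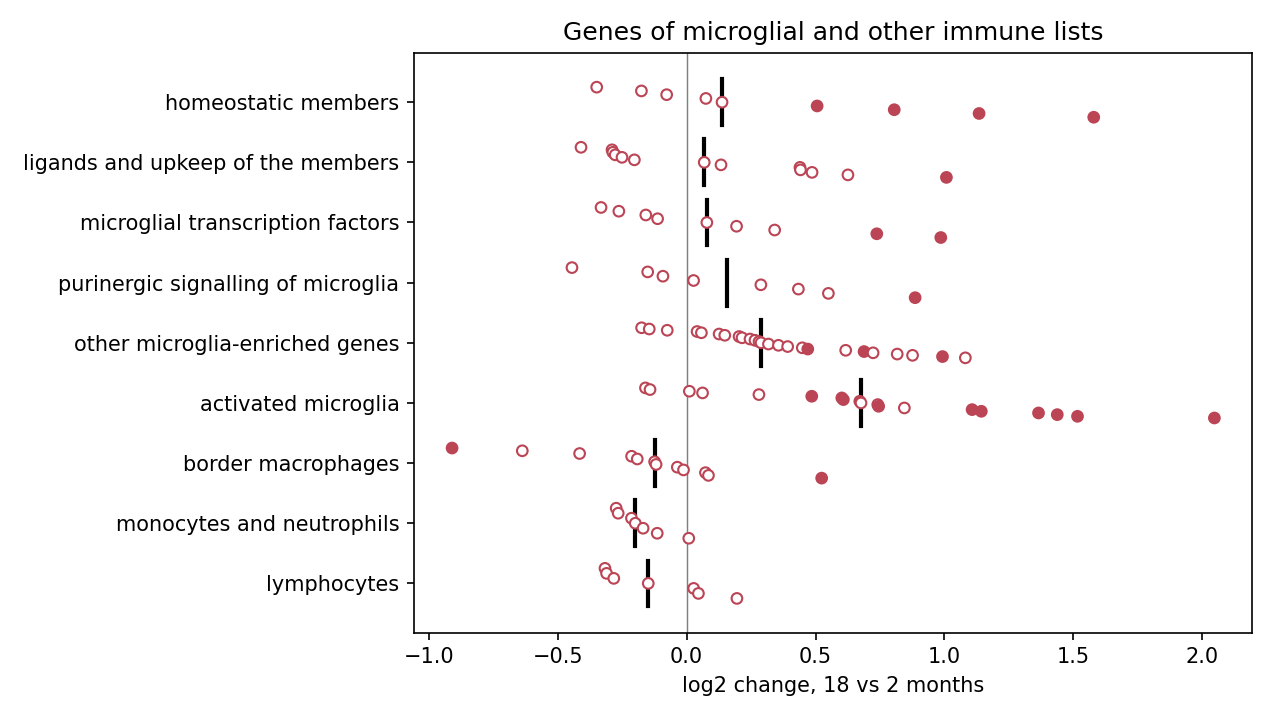
Log2 change at 18 against 2 months (horizontal axis) of each measured gene of 9 lists (rows) at its brightest probe set; filled points were called, open points were not and black bars are list medians. The homeostatic members spread from -0.35 to 1.58 with a median of 0.14, and the activated microglia genes have a median of 0.68.

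Markers of other cells that could carry these genes were measured beside them. Their counts also stand against 5.76% of all genes called higher and 3.06% called lower. Of 12 genes of border macrophages, the macrophages of vessels and meninges that share Csf1r and Cx3cr1 with microglia, Mrc1 was called higher (0.52 ± 0.14) and Pf4 lower (-0.91 ± 0.22). The median of the list was -0.12, and its mean level per sample lay at 6.06 to 6.19 (2 months), 5.80 to 6.36 (10 months) and 5.78 to 6.08 (18 months). No gene was called in the lists of monocytes and neutrophils (7 measured; mean level 5.03 to 5.20 in young and 4.82 to 5.02 in 18 months samples), of lymphocytes (7 measured; 5.51 to 5.66 and 5.33 to 5.58) or of plasmacytoid dendritic cells (5 measured; 6.99 to 7.15 and 6.65 to 7.35). Among other lists, 3 of 8 neuronal markers were called higher (Stmn2 by 1.25, Snap25 by 0.97 and Syt1 by 0.67) and Rbfox3 lower (-0.57). The other probe set of Snap25 (-0.96) and another of Syt1 (-0.99) were called lower. The remaining probe sets of Syt1 (0.15 and -0.22), Rbfox3 (-0.15 and -0.30) and Stmn2 (-0.12) were not called. Without array 1 of 2 months, 0 genes of border macrophages were called. The part of these cells in the members' changes was not tested.

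The genes whose levels over the 11 samples were most like those of the members, among 12542 genes with a mean level of at least 6, are given as a description. None of the 12 stood in the microglial lists. For P2ry12, Pearson r was 0.989 for Sdcbp, a scaffold protein, 0.986 for Idh3a, a mitochondrial enzyme, and 0.984 for Ppp2r2b, a phosphatase subunit found in neurons. Epdr1, Kcns3 and Golph3l followed with 0.981, 0.981 and 0.980. Of all those genes, 5% had an r above 0.873 with P2ry12. For the mean of the 9 members, r was 0.966 for Pole3, 0.959 for Vdac3, 0.947 for Arntl, 0.945 for Abca8a, 0.943 for Arpin and 0.942 for Prox1os. The 11 samples of these correlations differ by age and by the 3′ minus 5′ difference, which all genes share, so they describe these arrays and nothing more.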

How the data were processed

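Total RNA of dissected VTA was amplified in a two-cycle labelling protocol and hybridised to Affymetrix whole-genome mouse arrays. RMA was run by the authors, which gave the deposited log2 value of each probe set. Limma 3.4.5 is also named in the submitters' processing notes. Arrays have no read depth, and their number limits the precision.

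From the deposited table, 64 of 45101 probe sets (array controls) were left out. Gene names came from the array annotation (34945 probe sets with 1 gene, 932 with several, 9160 with none), and only those with 1 gene were named. The gene number of all 9 members matched RefSeq. The brightest probe set of a gene, by its mean over the arrays, stood for the gene. One model over the ages was fitted in limma 3.58.1 (R 4.3.3), with 1 mean for each age and without covariates. Counting young arrays 3 and 4 as 1 sample departs from the planned 12 separate arrays, which are given as an alternative. The same code was checked on simulated data. The replicate numbers of the labels were not used as pairs in the main fit.

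Every probe set of the members is named. From the other lists, genes called at 18 or 10 against 2 months are named, at most 4 by adjusted p, and the 4 ligands always. Of the 18 further lists, 10 are given in the report and the other 8 (red blood cells, choroid plexus, meninges and fibroblasts, endothelium and pericytes, astrocytes, oligodendrocytes and their precursors, dopaminergic neurons) stand in the closing section. The members, lists and tests were chosen with earlier results of these data known. Alternatives covered the replicate block, covariates, centring, quantile normalization, a filter on low values, the fold threshold, eBayes settings, array weights, the ages in the fit, the probe set of a gene and each sample left out.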

Additional observations from a re-analysis of the deposited data

How the results depend on the processing

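At 18 against 2 months, 4 member genes and 5 member probe sets were called. With the 3′ minus 5′ covariate 0 of either were called, and without 1 sample the counts ranged from 2 to 4 genes and from 2 to 5 probe sets. P2ry12 and P2ry13 were called in 21 of 22 alternatives each, failing with the 3′ minus 5′ covariate, Gpr34 in 14 and Tmem119 in 10, and the sign was the same in 22 of 22 for each of them. At 10 against 2 months, 2 genes and 3 probe sets were called. The counts were 0 and 0 with the 3′ minus 5′ covariate, 0 and 0 with only 2 ages in the fit, and 1 and 1 with trended and robust eBayes. With the first principal component as covariate they were 4 and 6, where the 4 genes were 3 higher and Sall1 lower (-0.60), and with the mean over the probe sets of a gene 1 gene was called. Without 1 sample they ranged from 0 to 3 genes and from 0 to 4 probe sets. Between 18 and 10 months and for unequal intervals, 0 members were called in every alternative run. With 12 separate arrays, 4 and 3 genes were called at 18 and at 10 against 2 months. Counting a gene as called at any of its probe sets, an alternative chosen after seeing the data, gave 5 and 3 genes, against 9.74% and 1.89% of all genes. The cause of these differences was not tested. The 3′ minus 5′ difference separates the 2 months arrays from all others, so the fit with it cannot tell this difference from age.

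Over all probe sets, the 3359 calls at 18 against 2 months became 0 with the 3′ minus 5′ covariate, 8712 with the first principal component, 5339 with array weights and 423 without array 1 of 2 months. The 613 calls at 10 against 2 months became 977 with 12 separate arrays, 2944 with array weights, 5390 with the first principal component, 217 with trended and robust eBayes, 0 with only 2 ages and between 1 and 1276 without 1 sample.

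Samples of the same replicate number did not deviate together (correlations of their deviations from the age means -0.61 to 0.43, median -0.26, over 12 pairs). For samples of different numbers these correlations ran from -0.69 to 0.77 (median 0.10, over 36 pairs). The numbers thus gave no sign of a pairing, which such correlations cannot exclude. With the replicate number as a block on 12 separate arrays, 3 member genes and 4 probe sets were called at 18 against 2 months, and 0 and 0 at 10 against 2 months, where 4 of 9 genes had an unadjusted p under 0.05 and 3 of all probe sets were called.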

Other observations

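Markers of further brain cells gave few calls at 18 against 2 months, at the brightest probe set of each gene. Of all genes, 5.76% were called higher and 3.06% lower. In the list of oligodendrocytes, Ermn, a protein of myelinating cells, was called higher (0.84 ± 0.13), the single call of 6 genes measured. In the list of choroid plexus it was Clic6 (0.76 ± 0.19, 1 of 7). Col3a1, a fibroblast collagen, was called lower (-0.63 ± 0.17, 1 of 7 genes of meninges and fibroblasts), and so was the pericyte receptor Pdgfrb (-0.72 ± 0.16, 1 of 10 genes of endothelium and pericytes). At their dimmer probe sets, Clic6 was also called higher (0.53), and Ermn (0.62), Col3a1 (-0.13) and Pdgfrb (-0.02) were not called. Of 8 genes of dopaminergic neurons, Th, the rate-limiting enzyme of dopamine synthesis, was called higher (0.84 ± 0.14) and the transcription factor En1 lower (-0.54 ± 0.11). No gene was called among 9 astrocyte genes (Slc1a3 0.59, adjusted p = 0.126, limma), 6 genes of oligodendrocyte precursors (Olig2 0.38, adjusted p = 0.065) and 3 of red blood cells (Slc4a1 -0.25).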
